A study of Homo sapiens with 4 samples.

Results

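The genes described here are 33 members of glycolysis and of the hypoxia response, picked by symbol from the deposited count table. They comprise 16 enzymes on the path from glucose to lactate and 17 genes of oxygen sensing and of the response to hypoxia-inducible factor (HIF). Each symbol was found on a row of its own among the 60544 rows of the table, and all 33 were among the 16802 genes that passed the low-count filter. The cells are PC3, a long-established line from human prostate cancer, grown in serum-supplemented medium with no oxygen restriction named in the labels, and the libraries were made from their poly(A) RNA. The control group, labelled shNC, and the group labelled sh812 had 2 libraries each, and the design is METTL3 knockdown against control. The METTL3 protein carries the methyltransferase activity that writes N6-methyladenosine (m6A) on messenger RNA. The sh812 label was read as the knockdown because no other label stands beside shNC. The knockdown rests on this single label, so a consequence of METTL3 loss and a consequence of this construct cannot be told apart. The labels do not say whether replicates were separate cultures, so the p-values measure only the spread between these libraries.

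Total counts ranged from 31450648 to 37041330 per library. Values are CPM, read counts scaled to a common library size, after TMM scaling, which corrects that size for differences in RNA composition. METTL3 itself stood at 44.3 and 43.6 CPM in the shNC libraries and at 7.66 and 8.75 CPM in the sh812 libraries (log2 fold change -2.42, SE 0.11, adjusted p = 5.54e-14 in edgeR). The 4 epithelial keratin and adhesion markers checked, KRT8, KRT18, KRT19 and EPCAM, summed to 805.1 to 999.3 CPM, whereas the secreted kallikreins of androgen-responsive prostate epithelium, KLK2 and KLK3, had 0 counts in every library. The list of 5 luminal prostate genes that holds them summed to 28.8 and 30.2 CPM in shNC and to 11.45 and 13.86 CPM in sh812. The T-cell marker CD3E was also at 0. The 7 leukocyte, endothelial and fibroblast markers together summed to 72.6 and 73.9 CPM in shNC and to 76.6 and 87.7 CPM in sh812. Of these 7, PECAM1 and COL1A2 had an adjusted p under 0.05 on the higher side and 0 did on the lower side. The part of these marker lists in the results below was not tested. In such bulk libraries a smaller number of cells of a kind and less RNA per cell cannot be told apart.

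Glycolysis converts glucose to pyruvate in the cytosol, and lactate dehydrogenase then reduces pyruvate to lactate. Many cancer lines run this path at a high rate also in the presence of oxygen. HIF is a pair of an alpha subunit and the constant beta subunit ARNT. With oxygen present, the EGLN hydroxylases mark the alpha subunit, and VHL, the substrate-binding part of a ubiquitin ligase, directs it to the proteasome. When the alpha subunit escapes, HIF binds short elements with an ACGTG or GCGTG core and raises transcription of glucose transporters, glycolytic enzymes, angiogenic ligands and mitophagy receptors. The HIF1A and EPAS1 proteins are thus set largely after transcription, and their RNA level does not report HIF activity.

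Promoter stretches are shown for 6 of the 9 members whose RNA passed the threshold given below. They are the enzymes GPI, PGK1, ENO1 and LDHA and the HIF targets BNIP3 and PDK1. Only starts that hold a core are shown, and PGAM1, which also passed, had no core in its window. The sequences are from RefSeq (GRCh38.p14), 5′ to 3′ on the strand of the gene. Capitals mark each ACGTG or GCGTG match on either strand, and 15 bases are kept beside the outermost matches where the window allows.
GPI: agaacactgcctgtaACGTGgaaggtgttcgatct
PGK1: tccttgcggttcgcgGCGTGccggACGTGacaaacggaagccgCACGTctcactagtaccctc
ENO1: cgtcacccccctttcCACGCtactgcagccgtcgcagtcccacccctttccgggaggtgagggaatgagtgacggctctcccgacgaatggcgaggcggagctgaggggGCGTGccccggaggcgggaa
LDHA: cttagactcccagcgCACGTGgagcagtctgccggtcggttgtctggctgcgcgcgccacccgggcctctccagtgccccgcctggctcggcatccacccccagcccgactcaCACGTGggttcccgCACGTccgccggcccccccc
BNIP3: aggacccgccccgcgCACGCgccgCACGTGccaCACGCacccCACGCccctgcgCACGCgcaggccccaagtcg
PDK1: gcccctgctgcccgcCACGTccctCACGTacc

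These stretches lie at chr19:34364815-34364849 (plus strand) for GPI, chrX:78104022-78104084 (plus) for PGK1, chr1:8878739-8878867 (minus) for ENO1, chr11:18394363-18394509 (plus) for LDHA, chr10:131982008-131982081 (minus) for BNIP3 and chr2:172556058-172556089 (plus) for PDK1. The outermost cores lie 162 bases before the start in GPI, 211 and 183 in PGK1, 166 and 72 in ENO1, 185 and 73 in LDHA, 143 and 104 in BNIP3, and 17 and 8 in PDK1. A palindromic CACGTG counts as a match on each strand, so LDHA holds 5 matches and BNIP3 holds 6. For LDHA and PDK1 the table lists 2 starts, of which the one with more cores is shown. The 250 bases before a start were available for 30 members, in 52 windows that overlap where a gene has several starts. ACGTG was found in 13 of the 36 enzyme windows (36.1%) and in 6 of the 16 windows of the hypoxia-response genes (37.5%), against 18.5% of all 35116 windows. GCGTG was found in 27.8% of the enzyme windows and in 37.5% of those of the hypoxia-response genes, against 32.2% of all windows. With either core the shares were 50.0% and 68.8%, against 43.2%. A match describes letters and shows neither binding nor a cause. Of the 9 members whose RNA passed the threshold 7 had an ACGTG in a window, and of the 21 others 9 did. With either core the counts were 8 of 9 and 16 of 21. Genes with several windows have more places for a match, and no share per gene was taken over all genes. Whether the cores go with the calls was not tested.

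The glycolytic enzymes were mostly higher in sh812, by modest amounts. GPI, ALDOA, GAPDH, PGK1, PGAM1, ENO1 and LDHA were called higher, which is 7 of 16, by 13.8% to 35.7%. A gene was called where its p in the quasi-likelihood test of edgeR, adjusted by Benjamini-Hochberg over all genes tested, was under 0.05. Of all genes tested 5.43% were called higher and 5.42% lower. No enzyme was called lower, as was so with DESeq2 and limma-voom, and 1, HK2, had an unadjusted p under 0.05 on the lower side, against 11 on the higher side. The median log2 fold change of the 16 enzymes was 0.19, beside -0.0056 for all genes tested. In 12 enzymes both sh812 libraries lay above both shNC libraries, and in 3 (HK2, PFKM and PFKP) both lay below. Such separation was seen in 26.2% of all genes tested on the higher side and in 27.4% on the lower side, 53.6% in all.

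**Figure D1:**
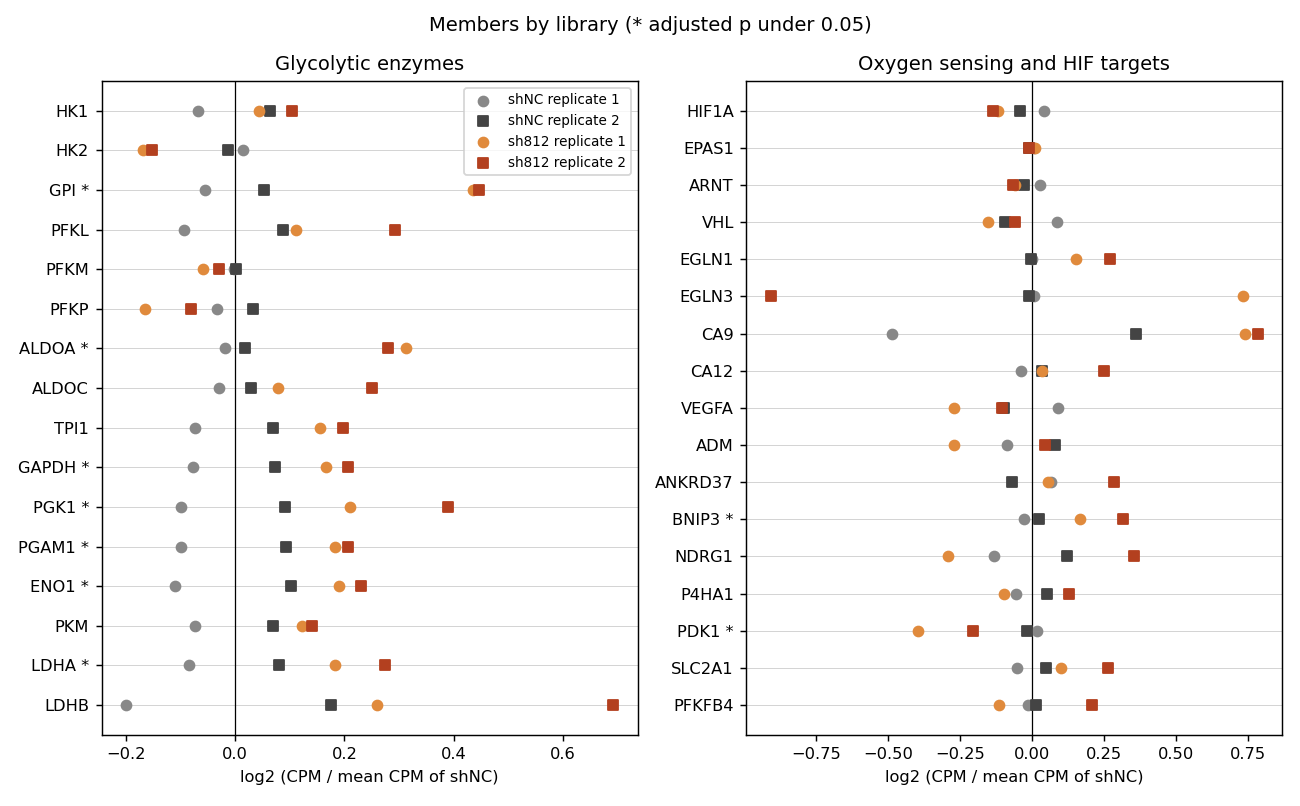
Each point is the CPM of a member in a library relative to the mean of the shNC libraries, on a log2 scale, with enzymes on the left and oxygen-sensing genes and HIF targets on the right. Asterisks mark an adjusted p under 0.05, and the sh812 points of GPI stand clear of both shNC points while those of NDRG1 lie on either side of them.

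Of the 9 genes of the preparatory steps, TPI1 included, GPI and ALDOA passed the threshold. Hexokinase traps glucose in the cell as glucose 6-phosphate, and neither of its genes passed. HK1 had 577 and 632 CPM in shNC and 623 and 649 CPM in sh812, so that the groups overlapped (log2 fold change 0.07, SE 0.06). HK2, the isoform often raised in tumours, had 171 and 168 CPM in shNC and 151 and 152 CPM in sh812 (log2 fold change -0.16, SE 0.06, adjusted p = 0.0838 in edgeR). Both sh812 libraries were thus below both shNC libraries for HK2. With counts divided by exon length, HK2 made up 18.1 ± 1.16% of the hexokinase level in shNC and 15.8 ± 0.285% in sh812 (SD, n = 2).

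GPI, which isomerizes glucose 6-phosphate to fructose 6-phosphate, had the smallest adjusted p of all members. It had 323 and 348 CPM in shNC and 453 and 457 CPM in sh812. The lowest sh812 library was well above the highest shNC library, and the gap exceeded the distance between replicates in either group. The log2 fold change was 0.44 (SE 0.06, adjusted p = 1.65e-05 in edgeR), that is 35.7% higher. The gene spans chr19:34359480-34402413 (plus strand, GENCODE 29). It was called higher in each of the 9 alternatives with a new fit to all 4 libraries and in each of the 4 fits with a library left out.

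Phosphofructokinase commits fructose 6-phosphate to glycolysis, and none of its 3 subunit genes passed the threshold. PFKL had 193 and 218 CPM in shNC and 222 and 251 CPM in sh812 (log2 fold change 0.21, SE 0.07, adjusted p = 0.0541 in edgeR). The groups were separate by a narrow margin. PFKL was called higher in 4 of the 9 alternatives with all 4 libraries. These were limma-voom (adjusted p = 0.0406), a mean CPM of at least 1 (0.0416), no low-count filter (0.0134) and the replicate block (0.0236). DESeq2 (adjusted p = 0.0687), the length trend removed (0.0775), library size alone (0.128), RLE scaling (0.059) and upper quartile scaling (0.051) did not call it. PFKP had 174 and 183 CPM in shNC and 159 and 169 CPM in sh812 (log2 fold change -0.12, SE 0.06). PFKM, at 111 to 115 CPM in all 4 libraries, had a log2 fold change of -0.04 (SE 0.06). Per exon length, the PFKL share of the phosphofructokinase level was 48.1% and 50.4% in shNC and 53.5% and 55.5% in sh812. The PFKP share was 34.08% and 33.03% in shNC and 30.02% and 29.13% in sh812. Neither set of shares overlapped between groups. With 2 libraries in each group an exact permutation test cannot give a p under 0.333, so these shares are given without a test.

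**Figure D2:**
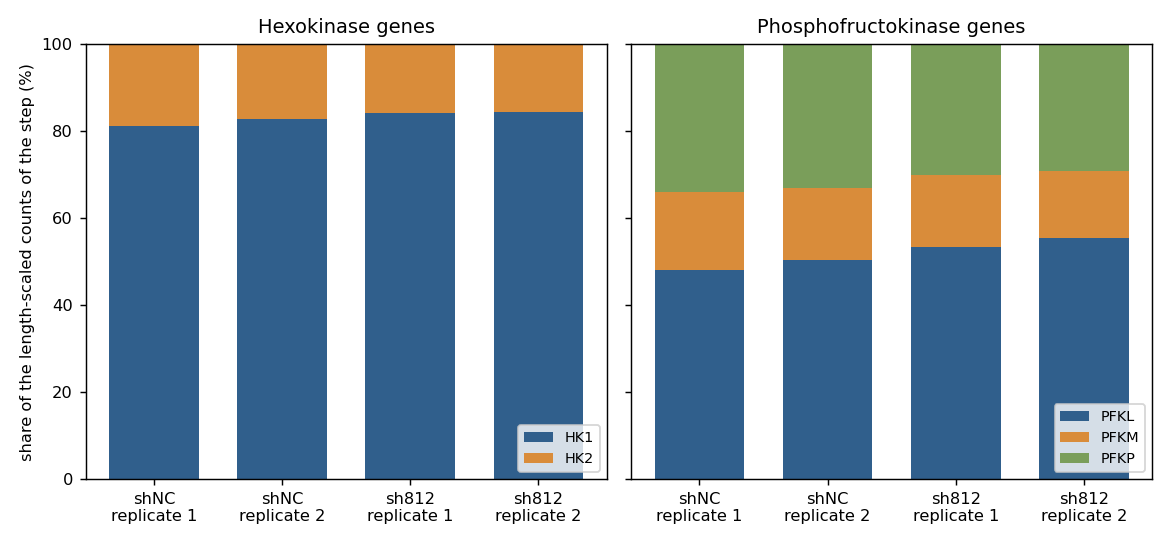
Bars show, for each library, the share of the exon-length-scaled counts of the hexokinase genes (left) and of the phosphofructokinase genes (right) that each isozyme gene holds, in percent. PFKL holds 48.1% and 50.4% under shNC against 53.5% and 55.5% under sh812, and HK1 holds 81.1% or more of hexokinase in all of them.

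Aldolase splits fructose 1,6-bisphosphate into the triose phosphates. ALDOA had 24.4 and 25.1 CPM in shNC and 30.7 and 30.1 CPM in sh812 (log2 fold change 0.30, SE 0.09, adjusted p = 0.0393 in edgeR), and the groups were well apart. ALDOC had 32.2 and 33.6 CPM in shNC and 34.8 and 39.1 CPM in sh812, with an adjusted p of 0.251 in edgeR. In GENCODE 29 another protein-coding gene on the same strand, AC093512.2, covers 42.3% of the exon bases of ALDOA over all transcripts. How reads over shared exons were counted is not given in the sources used here, so the ALDOA level is uncertain. The ALDOA call was lost with library size alone, without a low-count filter, with DESeq2 and with the length trend removed (adjusted p = 0.0865, 0.0594, 0.0967 and 0.0812), with log2 fold changes of 0.25, 0.29, 0.30 and 0.25.

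The genes of the pay-off phase, where ATP and NADH are made, were among the most abundant in the cells. Of these 5 genes 4 were called higher, namely GAPDH, PGK1, PGAM1 and ENO1. PKM was not called, although both of its sh812 libraries also lay above both shNC libraries. TPI1, which interconverts the triose phosphates just upstream, was at 889 and 981 CPM in shNC and at 1041 and 1071 CPM in sh812 (log2 fold change 0.18, SE 0.06, adjusted p = 0.0505 in edgeR), just outside the threshold. TPI1 was called higher in 6 of the 9 alternatives, among them DESeq2 (adjusted p = 0.0237) and limma-voom (0.024), and not with the length trend removed (0.129). GAPDH, which oxidizes glyceraldehyde 3-phosphate and is widely used as a reference gene, had 2393 and 2655 CPM in shNC and 2834 and 2912 CPM in sh812. Its log2 fold change was 0.19 (SE 0.06, adjusted p = 0.0339 in edgeR). GAPDH was thus 13.8% higher, with the groups apart. The call was lost with library size alone (adjusted p = 0.0632) and with the length trend removed (adjusted p = 0.0776).

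PGK1, the first ATP-making step, had 2125 and 2424 CPM in shNC and 2631 and 2981 CPM in sh812. Both groups were spread, but they did not overlap (log2 fold change 0.30, SE 0.06, adjusted p = 0.00323 in edgeR). The call was lost with DESeq2 (adjusted p = 0.133), although the log2 fold change was 0.31 there. PGAM1, which moves the phosphate of 3-phosphoglycerate, had 393 and 449 CPM in shNC and 478 and 486 CPM in sh812 (log2 fold change 0.20, SE 0.06, adjusted p = 0.0432 in edgeR). Its call was lost with library size alone (adjusted p = 0.0947) and with the length trend removed (adjusted p = 0.153).

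ENO1, the enolase gene, was the highest of the members and ranked 10 of 13245 protein-coding genes per exon length. It had 3625 and 4200 CPM in shNC and 4464 and 4589 CPM in sh812 (log2 fold change 0.21, SE 0.06, adjusted p = 0.0244 in edgeR). The shNC libraries differed from each other by more than the gap between the groups. The same held for GAPDH, PGK1, PGAM1 and LDHA, but not for the called enzymes GPI and ALDOA. PKM, whose product makes pyruvate and the second ATP of this phase, had 2503 and 2764 CPM in shNC and 2867 and 2904 CPM in sh812, which did not pass the threshold (log2 fold change 0.13, SE 0.06, adjusted p = 0.138 in edgeR).

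Lactate dehydrogenase regenerates NAD+ by reducing pyruvate. LDHA had 2617 and 2932 CPM in shNC and 3147 and 3355 CPM in sh812 (log2 fold change 0.23, SE 0.06, adjusted p = 0.0126 in edgeR), again with the groups apart. LDHB, the other main subunit gene, was low, at 3.59 and 4.65 CPM in shNC and 4.93 and 6.65 CPM in sh812 (log2 fold change 0.50, SE 0.20, adjusted p = 0.112 in edgeR). Per exon length LDHA made up 99.7% of the summed level in both groups. The LDHB level is uncertain in the same way, since a same-strand gene model, AC010197.2, covers 33.4% of its exon bases. Processed pseudogenes of the enzymes, which can share reads with the parent genes, held few counts. The 105 such rows summed to 0.127% of the enzyme counts, and the 65 GAPDH pseudogene rows to 0.451% of those of GAPDH.

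**Figure D3:**
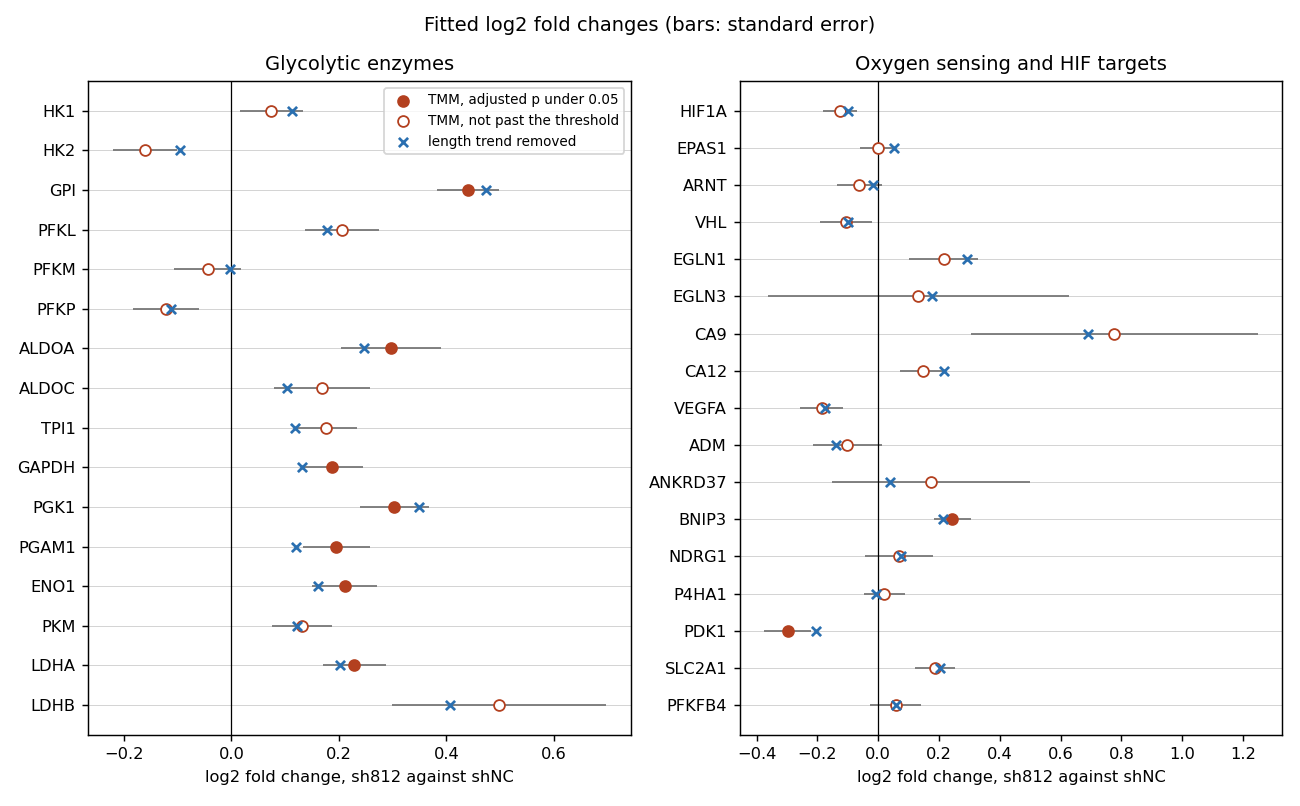
Points give the fitted log2 fold change of each member with its standard error (bars), filled where the adjusted p was under 0.05, and crosses give the value after each library's trend on gene length was removed. GPI moves from 0.44 to 0.47 and PGK1 from 0.30 to 0.35, whereas PGAM1 moves from 0.20 to 0.12 and PDK1 from -0.30 to -0.20.

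The enzyme result moved with differences between libraries of the same group. The 16 enzymes took 1.654% of all counts in shNC replicate 1 (95% exact binomial interval 1.65 to 1.658) and 1.823% in shNC replicate 2 (1.818 to 1.828). In sh812 they took 1.89% (1.886 to 1.895) in replicate 1 and 1.988% (1.983 to 1.993) in replicate 2, and these intervals cover counting error only. The groups did not overlap, but the shNC libraries were farther from each other than shNC replicate 2 was from sh812 replicate 1. In 15 of the 16 enzymes shNC replicate 2 exceeded shNC replicate 1, with a median log2 difference of 0.14, beside -0.0011 over all genes tested. Gene length moved with this difference. Across 12257 genes the Spearman correlation with exon length was -0.34 for the group difference and -0.33 for shNC replicate 2 against shNC replicate 1. For sh812 replicate 2 against sh812 replicate 1 it was 0.041. The median exon length was 2962.5 bases for the enzymes and 3268 for all genes tested. Across the 33 members, which share these libraries, the correlation of the log2 fold change with length was -0.43. Within the 16 enzymes it was -0.35, and within the 17 hypoxia-response genes -0.28.

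With each library's length trend removed, GPI, PGK1, ENO1 and LDHA remained called higher (4 of 16, against 4.91% of all genes tested), 0 enzymes were called lower (against 4.9%), and the enzyme median was 0.13. Scaled by library size alone, the same 4 were called higher and HK2 was called lower, against 3.34% and 7.9% of all genes tested. Without sh812 replicate 2 GPI alone was called higher, and without sh812 replicate 1 GPI and PGK1 were. Without shNC replicate 1 ENO1, GAPDH, GPI, LDHA and PGK1 were. Without shNC replicate 2 the count was 12, and HK2 was called lower. In these fits the lone library of a group is assumed to vary like the other group.

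The hypoxia-response genes were on both sides of their control level, 10 above and 7 below. Of these 17 members BNIP3 was called higher and PDK1 lower, which is 11.8% beside 10.8% of all genes tested, and the median log2 fold change was 0.06. In 5 of the 17 both sh812 libraries lay above both shNC libraries, and in 4 they lay below, beside 26.2% and 27.4% of all genes tested, so such separation was near its share over all genes.

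Of the 6 oxygen-sensing genes 0 passed the threshold in edgeR, DESeq2 or limma-voom. HIF1A, the alpha subunit of HIF-1, was the member of this group with an unadjusted p under 0.05. It had 610 and 576 CPM in shNC and 546 and 540 CPM in sh812 (log2 fold change -0.13, SE 0.06, adjusted p = 0.16 in edgeR), with both sh812 libraries below both shNC libraries. With library size alone HIF1A was called lower (log2 fold change -0.17, adjusted p = 0.0406 in edgeR), and likewise without shNC replicate 2 (adjusted p = 0.00306). EPAS1, which encodes HIF-2 alpha, lay between 246 and 249 CPM in all 4 libraries, and the groups overlapped. ARNT had a log2 fold change of -0.06 (SE 0.07) and VHL one of -0.11 (SE 0.08). The hydroxylase gene EGLN1 had 14.7 and 14.6 CPM in shNC and 16.3 and 17.7 CPM in sh812 (log2 fold change 0.22, SE 0.11, adjusted p = 0.25 in edgeR), with sh812 above shNC in both libraries. EGLN3, itself a HIF target, had only 17 to 52 counts per library, and its sh812 libraries, at 1.48 and 0.48 CPM, lay on either side of the shNC libraries.

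Among the 11 HIF targets, BNIP3 and PDK1 passed the threshold in opposite directions. BNIP3, a receptor on the outer mitochondrial membrane that promotes mitophagy, had 228 and 236 CPM in shNC and 261 and 289 CPM in sh812. The groups were apart. BNIP3 was 18.4% higher (log2 fold change 0.24, SE 0.06, adjusted p = 0.0114 in edgeR). Its call was kept in all 9 alternatives fitted to the 4 libraries and was lost without sh812 replicate 2 (log2 fold change 0.17, adjusted p = 0.382 in edgeR). The gene spans chr10:131966455-131982013 (minus strand, GENCODE 29).

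PDK1 is a kinase that inactivates pyruvate dehydrogenase and so limits the use of pyruvate inside mitochondria. It had 69.3 and 67.6 CPM in shNC and 52.0 and 59.4 CPM in sh812. Both sh812 libraries were below both shNC libraries (log2 fold change -0.30, SE 0.08, adjusted p = 0.0131 in edgeR). The gene, at chr2:172555373-172608669 (plus strand), has a long exon model of 14253 bases. With the length trend removed its log2 fold change was -0.20 and the call was lost (adjusted p = 0.0766 in edgeR). The call was also lost without sh812 replicate 1 (log2 fold change -0.20, adjusted p = 0.377 in edgeR).

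The glucose transporter gene SLC2A1 had 169 and 181 CPM in shNC and 188 and 211 CPM in sh812, with sh812 above shNC by a narrow margin (log2 fold change 0.19, SE 0.06, adjusted p = 0.066 in edgeR). It was called higher with the length trend removed (adjusted p = 0.0342 in edgeR), without a low-count filter (0.0409) and without shNC replicate 2 (0.00023). PFKFB4, which sets the level of the phosphofructokinase activator fructose 2,6-bisphosphate, had 68.1 and 69.5 CPM in shNC, inside the sh812 values of 63.6 and 79.6 CPM.

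VEGFA, the main angiogenic ligand, had 156 and 137 CPM in shNC and 121 and 136 CPM in sh812 (log2 fold change -0.19, SE 0.07, adjusted p = 0.0921 in edgeR). The groups did not overlap, but their nearest libraries were almost equal. VEGFA was called lower with library size alone (log2 fold change -0.23, adjusted p = 0.0452 in edgeR) and without shNC replicate 2 (adjusted p = 9.22e-05). The carbonic anhydrase genes, whose products buffer acid at the cell surface, were on different scales. CA12 had 71.0 and 74.6 CPM in shNC and 74.6 and 86.6 CPM in sh812, and it was called higher only without shNC replicate 2 among the fits run (adjusted p = 0.0474 in edgeR). CA9 had 18 and 27 counts in shNC and 39 and 41 counts in sh812, which is at most 1.15 CPM. Its log2 fold change of 0.78 had an SE of 0.47 (adjusted p = 0.325 in edgeR), and the gene ARHGEF39 on the opposite strand covers 38.5% of its exon bases. The peptide hormone gene ADM lay between 18.3 and 23.3 CPM, with overlapping groups. ANKRD37 did not exceed 1.9 CPM in any library, and the opposite-strand gene UFSP2 covers 35.2% of its exon bases.

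NDRG1 and P4HA1 were abundant and varied within sh812. NDRG1, a stress-responsive gene, had 677 and 807 CPM in shNC and 606 and 949 CPM in sh812, so that the sh812 libraries enclosed the shNC libraries. P4HA1, a subunit of the collagen prolyl hydroxylase, had 511 and 552 CPM in shNC and 496 and 581 CPM in sh812 in the same arrangement. In each of the 11 HIF targets sh812 replicate 2 exceeded sh812 replicate 1, with a median log2 difference of 0.21, beside -0.0040 over all genes tested. The same direction was seen in 27 of the 30 other HIF targets described below (median 0.16) and in 15 of the 16 enzymes (median 0.041). It was seen in 2 of the 6 oxygen-sensing genes and in 8198 of all 16802 genes tested. The median difference between groups over the 11 HIF targets was 0.07, smaller than their median of 0.21 between the sh812 libraries. NDRG1 was called higher without sh812 replicate 1 (log2 fold change 0.36, adjusted p = 0.00702 in edgeR) and without shNC replicate 2 (0.21, adjusted p = 4.09e-05), and without sh812 replicate 2 its log2 fold change was -0.29 (adjusted p = 0.0519 in edgeR).

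The remaining genes of the pathways were read from lists of 88 genes, of which 75 were tested. Of these 6 were called higher and 4 lower, which is 13.3% beside 10.8% of all genes tested, and the median log2 fold change was -0.02. Of the 12 other glycolysis genes tested, PGM1, which links glycogen breakdown to glucose 6-phosphate, rose from 145 and 159 CPM to 176 and 182 CPM (log2 fold change 0.24, SE 0.06, adjusted p = 0.0152 in edgeR). None of the 12 was called lower in that test of all 4 libraries. Both sh812 libraries lay below both shNC libraries in 4 of the 12 and above them in 2. Over all genes tested these shares were 27.4% and 26.2%. BPGM, the bisphosphoglycerate mutase gene, was called lower with the length trend removed (log2 fold change -0.33, adjusted p = 0.044 in edgeR, against -0.27 and 0.109 with the trend kept). PFKFB3, a paralog of PFKFB4, was called lower with library size alone and without shNC replicate 1. The lactate and pyruvate transporters SLC16A1 and SLC16A3 had log2 fold changes of 0.10 and 0.04 and did not pass. In the pentose phosphate pathway 1 of 7 genes passed. It was TKT, the transketolase gene, which had 432 and 448 CPM in shNC and 522 and 500 CPM in sh812 (log2 fold change 0.22, SE 0.06, adjusted p = 0.0138 in edgeR). The sh812 libraries of both PGM1 and TKT lay above both shNC libraries.

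Of the 4 gluconeogenesis genes tested FBP1 passed the threshold. FBP1 encodes fructose 1,6-bisphosphatase, which runs opposite to phosphofructokinase. It had 8.44 and 7.37 CPM in shNC and 14.2 and 12.3 CPM in sh812 (log2 fold change 0.74, SE 0.14, adjusted p = 0.000915 in edgeR), that is 67.2% higher at a low level. The next list holds 12 genes of the mitochondrial pyruvate carrier, of pyruvate dehydrogenase, and of its phosphatases and its kinases other than PDK1. Of these PDP1 was called lower and 0 were called higher, which is 8.33% beside 10.8% of all genes tested. PDP1 is the phosphatase that reverses the PDK reaction. It had 53.3 and 49.3 CPM in shNC and 42.6 and 44.1 CPM in sh812 (log2 fold change -0.25, SE 0.08, adjusted p = 0.0475 in edgeR). The PDP1 call was lost with the length trend removed (adjusted p = 0.0774 in edgeR), with RLE scaling, without a low-count filter and with DESeq2. The kinase PDK1 and the phosphatase PDP1 were thus both called lower. Their paralogs did not pass, with log2 fold changes of -0.05 for PDK2, 0.18 for PDK3, 0.07 for PDK4 and -0.24 for PDP2. The pyruvate dehydrogenase subunits PDHA1 and PDHB had log2 fold changes of 0.09 and 0.18 and did not pass.

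Of 30 other HIF targets tested 3 were called higher and 3 lower, which is 20% beside 10.8% of all genes tested. Of 10 other genes of the HIF system 0 passed in edgeR, DESeq2 or limma-voom (2 higher and 1 lower at an unadjusted p under 0.05). The HIF targets called higher were AK4, a mitochondrial adenylate kinase (log2 fold change 0.32), FAM162A (0.28) and the stress-induced mTORC1 inhibitor DDIT4 (0.30). Their adjusted p-values were 0.00174, 0.0057 and 0.0383 in edgeR. The DDIT4 call was lost with the length trend removed (adjusted p = 0.134), with library size alone and with DESeq2. Of the lower ones IGFBP3, an insulin-like growth factor binding protein, had the smallest adjusted p. IGFBP3 fell from 639 and 687 CPM to 273 and 328 CPM (log2 fold change -1.14, SE 0.07, adjusted p = 2.95e-11 in edgeR). Its log2 fold change was larger in size than that of any member called, and its sh812 libraries lay far below both shNC libraries. BNIP3L, the paralog of BNIP3 in mitophagy, fell from 142 and 153 CPM to 117 and 131 CPM (log2 fold change -0.25, SE 0.07, adjusted p = 0.0178 in edgeR), opposite to BNIP3. PLOD2, a lysyl hydroxylase of collagen, fell by 0.23 on the log2 scale (adjusted p = 0.0129 in edgeR). Without sh812 replicate 2 FBP1 was the only one of the 6 still called higher, with IGFBP3 and BNIP3L still called lower. Without sh812 replicate 1 AK4, DDIT4 and FBP1 were still called higher, with IGFBP3 still lower.

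**Figure D4:**
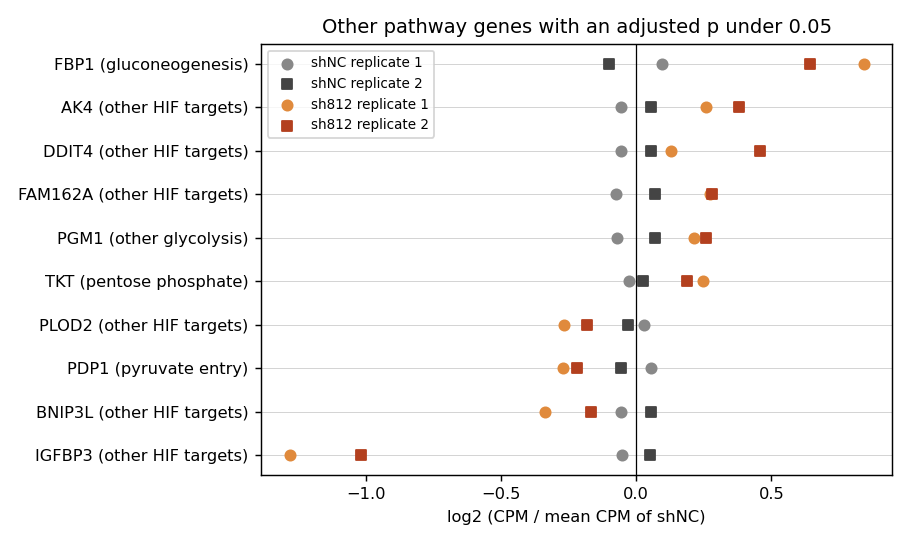
Each point is the CPM of a gene in a library relative to the mean of the shNC libraries, on a log2 scale, for the 10 genes of the other pathway lists with an adjusted p under 0.05. IGFBP3 lies near or below -1 in both sh812 libraries, FBP1 is the highest, and BNIP3L is on the lower side.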

How the data were processed

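The authors deposited raw read counts per gene for 4 libraries, used here as raw counts, since every value is whole and library totals differ. The submitters' processing notes name the build hg38 and the tools fastp, STAR 2.7.1a, featureCounts and DESeq2. The annotation release, the strand setting and the handling of reads over shared exons are not given in the sources used here, so overlapping genes may lose or share reads.

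The test was the quasi-likelihood F test of edgeR 4.0.16 (R 4.3.3), after filterByExpr and TMM scaling, with 2 libraries per group and no covariate. Benjamini-Hochberg adjustment covered all 16802 genes, and 0.05 was the threshold. The fitted fold change used a prior count of 0.125, and its SE came from the F statistic. Positions and exon lengths are those of GENCODE 29 (GRCh38), with the length as the union of exons of the basic set, which can exceed the main transcript. Promoters are from RefSeq. The length trend was removed with a lowess curve per library (span 0.3) as an offset. Alternatives also included RLE, upper quartile and library size scaling, other filters, DESeq2 1.42.0, limma-voom (limma 3.58.1), the replicate block and leaving out each library. Replicates differed by more than sampling noise (chi-square per gene 8.43 for shNC, 4.51 for sh812), so each library counts as 1 replicate. The methods were tested on simulated counts. The members and lists were chosen with earlier results of these data known, and 1 gene of the other pathway lists is not reported here and was left out of their counts. Named genes are METTL3, the members, with library values for those called and for those with separate groups and a log2 fold change of at least 0.2 in size, and the called genes of the other lists. Other genes given with values, including members named beyond this rule, were chosen after their values were seen.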

Additional observations from a re-analysis of the deposited data

How the results depend on the processing

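Alternatives were planned, except for the other pathway lists and the isozyme shares, whose alternatives were chosen after seeing the data. With library size alone, 561 genes were called higher and 1328 lower (against 912 and 910), 5 members higher and 4 lower (against 8 and 1), 4 enzymes higher and 1 lower (against 7 and 0) and 3 hypoxia-response members lower (against 1), and the median of all genes moved to -0.050. With the length trend removed, 4 enzymes were higher, 2 hypoxia-response members were higher, and 0 members and 0 hypoxia-response members were lower. DESeq2 called 576 genes lower. Without a low-count filter 2 hypoxia-response members were higher. Values near 0 changed sign for EPAS1 (RLE 0.0032, upper quartile 5.63e-05, DESeq2 0.0045, length trend removed 0.051), P4HA1 (library size alone -0.023, length trend removed -0.0077) and EGLN3 (limma-voom -0.090). The cause was not tested. Of 292 member values under alternatives with all 4 libraries, 258 kept direction and call, 10 lost the call, 17 gained it and 7 changed sign. The share differences of HK2, PFKL, PFKM and PFKP each moved by less than 1 SD of the replicates when the longest transcript replaced the exon union. The aldolase and lactate dehydrogenase shares were not checked in this way.

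The labels number replicates 1 and 2 in both groups without stating that a number marks a shared day. Deviations of same-numbered libraries correlated at 0.0164 across all genes tested, so the numbers were not taken as pairs. Among the members, replicate 2 exceeded replicate 1 in 15 of the 16 enzymes in each group. It did so in 8 (shNC) and 11 (sh812) of the 11 HIF targets, and in 0 and 2 of the 6 oxygen-sensing genes. Whether the number marks a shared effect on these genes was not tested. A fit with the replicate block gave 1003 genes higher and 998 lower, with 11 members and 9 enzymes higher, 2 hypoxia-response members higher (BNIP3 and SLC2A1) and 1 lower.

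Leaving out a library in turn, the counts ran from 261 to 1703 genes higher and 326 to 1549 lower, 1 to 16 members higher and 0 to 4 lower, 1 to 12 enzymes higher and 0 to 1 lower, 0 to 4 hypoxia-response members higher and 0 to 3 lower, and 1 to 16 other pathway genes higher and 1 to 7 lower. The counts of higher genes were lowest without sh812 replicate 1 over all genes and without sh812 replicate 2 over the enzymes, and each of these counts was highest without shNC replicate 2. The enzyme median was lowest without shNC replicate 1 (0.11) and highest without shNC replicate 2 (0.28), and the hypoxia-response median ran from -0.061 to 0.13. Signs changed for EPAS1 (-0.0098 to 0.0088), EGLN3 (-0.90 to 0.73), ADM (-0.27 to 0.050), NDRG1 (-0.29 to 0.36), P4HA1 (-0.099 to 0.13) and PFKFB4 (-0.11 to 0.21).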
